A study of Mus musculus with 2 samples.

Results

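The MHC class II genes examined here were Cd74, H2-Aa, H2-Ab1, H2-Eb1, H2-DMa, H2-DMb1 and Ciita, 7 of the 28692 genes measured, followed across the stromal cells of intestinal grafts. The genes were chosen because earlier measurements on these same cells had shown them, so their levels are given as a description and carry no test. Embryonic large intestine (LI) or small intestine (SI) of the strain labelled EYFP (C57BL/6), from C57BL/6Nrj females mated with males expressing the yellow fluorescent protein EYFP (YFP), had been placed under the kidney capsule of adult wildtype (WT) mice and left for 4 weeks. YFP+ Itgb1+ cells lacking CD45, Ter119, BP3, CD31, EpCAM and L1CAM were then sorted, which retains mesenchymal cells of the graft and removes host cells, blood, endothelium, epithelium and glia as far as the gate reaches. Each segment gave 1 single-cell library. Both are labelled as grafted lamina propria, and beside fibroblasts, pericytes and smooth muscle cells they held interstitial cells of Cajal, which are typical of the muscle layer. The LI library came from pooled colonic grafts, and whether the SI grafts were pooled was not stated, so a difference between the libraries cannot be told apart from one between grafts.

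MHC class II molecules present peptides taken up from outside the cell to CD4+ T cells, and they are typical of dendritic cells, macrophages and B cells. Each is a pair of an alpha and a beta chain. H2-Aa and H2-Ab1 encode the chains of the I-A molecule and H2-Eb1 the beta chain of I-E, whose alpha chain gene, H2-Ea, is defective in C57BL/6 mice and was not analysed here. Cd74 encodes the invariant chain, which escorts the new pair to the endosome and blocks its groove. H2-DMa and H2-DMb1 encode the subunits of H2-M, the catalyst that exchanges the remnant of the invariant chain for peptide. Ciita is the coactivator on which expression of all these genes depends, and interferon-gamma is its best known inducer in cells that are not professional antigen-presenting cells, fibroblasts among them.

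The 5 H2 genes lie together on chromosome 17 of GRCm38. H2-DMa spans 34119541 to 34139101 and H2-DMb1 34153072 to 34160230 on the plus strand, H2-Ab1 34257689 to 34269419 and H2-Eb1 34305867 to 34316674 likewise on the plus strand, and H2-Aa 34282744 to 34287823 on the minus strand. CIITA does not bind DNA itself. It docks on factors bound at short elements upstream of class II genes, among them the X box, bound by RFX, and the Y box, bound by NF-Y. RefSeq promoter windows on GRCm38.p6, each 300 bases long, were at hand for 4 of the 7 genes (H2-Aa, H2-DMa, H2-DMb1 and H2-Eb1). Both strands were searched for TGATTGG, a Y box, and for AGNNACNGA, a core of the X box, with letters chosen after these windows had been seen. 2 stretches are printed to show how these elements are placed in the promoters of an alpha and a beta chain, with the matches in capitals.
H2-Eb1, plus strand, chr17:34305746-34305834: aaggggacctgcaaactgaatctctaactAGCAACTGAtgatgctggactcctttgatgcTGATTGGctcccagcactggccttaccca
H2-Aa, minus strand, chr17:34287845-34287933: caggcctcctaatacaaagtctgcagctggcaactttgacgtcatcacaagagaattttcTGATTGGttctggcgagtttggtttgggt

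In H2-Eb1 the X core began 92 bases before the RefSeq start and the Y box 61 bases before it, a spacing of 31 bases. H2-DMb1 had the same arrangement, at 95 and 63 bases before the start and a spacing of 32, with a further X core match on the opposite strand. The RefSeq start of H2-DMb1 lies inside the gene span given above, and so do both of these matches, unlike those in H2-Eb1. H2-Aa had the Y box 50 bases before the start and no match to the X core. Neither set of letters was found in either of the 2 windows of H2-DMa. The Y box letters occurred in 7.82% of the 32851 promoter windows of the table and the X core in 17.7%. The X core followed by the Y box within 40 bases on the same strand occurred in 36 windows (0.110%), those of H2-Eb1 and H2-DMb1 included. A match describes the sequence and is no evidence that a factor was bound.

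Cells with at least 500 genes, at most 10% mitochondrial UMIs (unique molecular identifiers, 1 per captured RNA molecule) and no UMI of the immune genes Ptprc, Tyrobp, Laptm5 and Fcer1g were kept. This left 9075 of 11568 barcodes from the LI graft and 7295 of 9631 from the SI graft, with a median of 5227 and 5594 UMIs per cell. The libraries shared 26 barcodes. Cells were classed by markers: PDGFRAhi fibroblasts (FB), which underlie the epithelium (Sox6, Bmp3, Bmp7), adventitial-type FB (Pi16, Scara5, Ly6c1), Grem1/CD81 FB (Grem1, Ackr4), Fgfr2 FB (Fgfr2, Adamdec1), FB without a leading subset, pericytes (Rgs5, Notch3), smooth muscle cells (SMC; Myh11, Cnn1) and interstitial cells of Cajal (ICC; Kit, Ano1). Each named class had at least 2 of its own markers among its 10 leading genes, which is no independent check, since these markers gated the cells. The 10 of SI Fgfr2 FB also held the plasma cell genes Igkc, Igha and Jchain, and those of SI Grem1/CD81 FB the haemoglobin genes Hbb-bs, Hba-a1 and Hba-a2 and not Grem1. Those of LI Grem1/CD81 FB held Thbs4, a marker listed for ICC. Among SI fibroblasts without a UMI of Cd74, H2-Aa, H2-Ab1 and H2-Eb1, 1 cell held all 1230 Hbb-bs UMIs. The remaining FB, a residual group, had no markers of its own and in the SI graft had Thbs4 as its first gene. Fibroblasts made up 7730 of the kept cells in the LI and 5597 in the SI graft. A cell was called male where it had a UMI of a Y-linked gene and none of Xist and female where it had the reverse. Such a call can rest on 1 UMI, and sex cannot be told apart from the embryo of origin. Male-called cells were 685 of the LI fibroblasts (8.86%) and 1244 of the SI fibroblasts (22.2%). Female-called cells were 6284 and 3292, and 761 and 1061 stayed uncalled. Levels are pooled UMI counts scaled to 1000000 UMIs (CPM), and all intervals are 95% and cover counting error only, not the spread between grafts or between cells.

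Class II RNA was present in every stromal class, but unevenly (see the plot of summed levels by class). In the LI graft the 7 genes summed to 49.7 CPM (39.97 to 61.1) in pericytes, 72.4 (62.5 to 83.4) in PDGFRAhi FB, 185 (178 to 192) in Fgfr2 FB and 257 (234 to 281) in SMC. They reached 592 (568 to 617) in adventitial-type FB, 596 (552 to 643) in ICC, 683 (669 to 697) in remaining FB and 715 (702 to 729) in Grem1/CD81 FB. Adventitial-type FB and ICC were the only neighbours in this order whose intervals overlapped. The order in the SI graft was pericytes at 79.2 CPM (69.6 to 89.8), PDGFRAhi FB at 147 (133 to 162), SMC at 438 (418 to 458), Fgfr2 FB at 533 (520 to 547), ICC at 606 (512 to 713), remaining FB at 689 (670 to 708), adventitial-type FB at 760 (723 to 798) and Grem1/CD81 FB at 961 (944 to 979). Here the interval of ICC, from 49 cells, overlapped those of both neighbours. Of these classes, each of at least 49 cells, pericytes and PDGFRAhi FB were lowest and Grem1/CD81 FB highest in both libraries. The few mesothelial-type cells lay above them, at 6062 CPM in 25 LI cells and 7638 in 9 SI cells. A single cell held 24.2% of the class II UMIs of LI ICC and 29.7% of those of SI ICC. For SMC this share was 19.1% in the LI and 11.2% in the SI graft. The intervals do not cover such spread between cells, so the places of ICC and SMC in the order are uncertain. The order differed by sex call. Among female-called cells SMC, at 36.1 CPM (27.4 to 46.6) in the LI and 73.3 (61.9 to 86.1) in the SI graft, were below PDGFRAhi FB at 69.6 (59.6 to 80.9) and 86.2 (72.0 to 102), with overlapping intervals in the SI graft. Among male-called LI cells Grem1/CD81 FB, at 1977 CPM, were below adventitial-type FB (2246), remaining FB (2329) and SMC (2966, 13 cells), and among female-called SI cells, at 214, they were below remaining FB (235) and ICC (321, 31 cells). A pooled level does not tell a larger share of cells with class II RNA from more of it per cell.

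**Figure D1:**
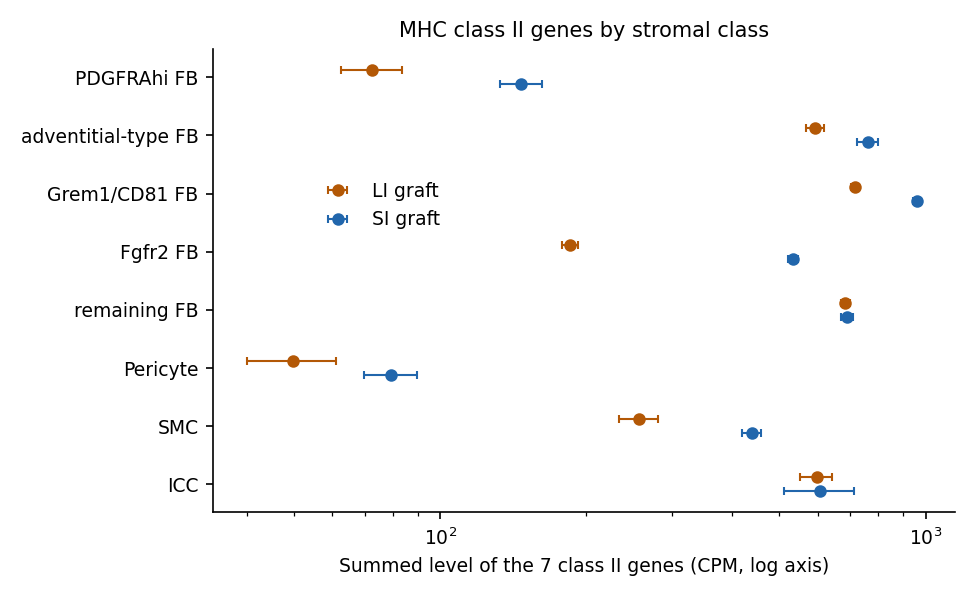
Summed level of the 7 class II genes in each stromal class (CPM, log axis) in the LI graft (orange) and the SI graft (blue). Points are pooled levels of 1 library and bars are exact 95% Poisson intervals of the UMI count. With male-called and female-called cells pooled, pericytes and PDGFRAhi FB sit lowest in both libraries and Grem1/CD81 FB highest, at 715 and 961 CPM.

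The invariant chain gene Cd74 (chromosome 18, 60803848 to 60812652, plus strand) was in all fibroblasts at 207 CPM in the LI (203 to 211) and 302 in the SI graft (297 to 308). Across the LI classes it ran from 11.6 CPM in pericytes and 20.6 in PDGFRAhi FB through 77.1 in Fgfr2 FB, 141 in SMC, 232 in adventitial-type FB and 281 in Grem1/CD81 FB to 290 in remaining FB and 327 in ICC. SI levels ran from 20.7 in pericytes and 49.0 in PDGFRAhi FB through 207 in SMC, 247 in Fgfr2 FB, 294 in adventitial-type FB and 296 in remaining FB to 326 in ICC and 416 in Grem1/CD81 FB. How much of the Cd74 of ICC came from the single cell richest in class II UMIs was not tested. A Cd74 UMI was found in 2.46% of LI and 4.91% of SI pericytes (median depth 4156 and 4285 UMIs per cell), against 20.4% and 21.9% of Grem1/CD81 FB (6475 and 6408). With every cell thinned to 2000 UMIs these shares were 0.787% and 2.44% in pericytes and 12.9% and 14.7% in Grem1/CD81 FB. PDGFRAhi FB stood at 6.60% and 10.6% (median depth 4851 and 5948), or 3.72% and 4.12% thinned, with thinned intervals that overlapped those of pericytes in both libraries. The share given by RNA set free from other cells was not measured.

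The genes of the I-A and I-E chains were likewise low in pericytes and PDGFRAhi FB. H2-Aa was at 77.2 CPM in LI and 100.3 in SI fibroblasts, H2-Ab1 at 116 and 132, and H2-Eb1 at 75.3 and 98.6. All of these were highest in Grem1/CD81 FB in both libraries, H2-Aa at 111 and 139 CPM, H2-Ab1 at 167 and 181 and H2-Eb1 at 110 and 146. In pericytes and PDGFRAhi FB of the LI graft they were at 7.73 to 27.0 CPM. SMC and ICC had fewer H2-Aa UMIs for their Cd74. They had 17.1 and 23.3 per 100 Cd74 UMIs in the LI graft and 26.9 and 15.4 in the SI graft, beside 37.3 and 33.2 in all fibroblasts. The SI ICC value came from 12 H2-Aa UMIs. The part of single cells in these SMC and ICC values was not tested. For H2-Eb1 in the SI graft the intervals of SMC (24.8 to 33.0) and ICC (16.7 to 45.8) overlapped that of all fibroblasts (31.4 to 33.9). For H2-Ab1 that of SI ICC (15.8 to 44.0) did as well (42.1 to 45.1). H2-Ab1 differed between the FB classes on the same scale. Per 100 Cd74 UMIs, PDGFRAhi FB had 131 H2-Ab1 UMIs in the LI graft (90.9 to 189) and 98.5 in the SI graft (76.6 to 127), while all fibroblasts had 56.2 (54.4 to 58.0) and 43.6 (42.1 to 45.1). Fgfr2 FB lay at the other end, with 47.4 and 38.4. The LI value in PDGFRAhi FB came from 72 H2-Ab1 and 55 Cd74 UMIs. For H2-Aa the interval in LI PDGFRAhi FB, 24.5 to 69.2 around 41.8 per 100 Cd74 UMIs, included that of all LI fibroblasts, 35.9 to 38.7.

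The H2-M subunit genes were counted less often and varied on their own. H2-DMa was at 13.4 CPM in LI and 35.5 in SI fibroblasts, and H2-DMb1 at 19.9 and 23.9. H2-DMa was at 19.3 CPM in Grem1/CD81 FB and 17.6 in adventitial-type FB of the LI graft and at 44.4 and 51.2 in the SI graft, its highest classes, with overlapping intervals in each library. Pericytes, lowest in Cd74, had 82.8 H2-DMa UMIs per 100 Cd74 UMIs in the SI graft (56.4 to 121) and 47.6 (20.02 to 106) in the LI graft, against 10.7 and 6.88 in Grem1/CD81 FB. The LI pericytes held only 90 class II UMIs in all, 36 of them in 1 cell. H2-DMb1 and its near-identical neighbour H2-DMb2 may exchange reads, and H2-DMb2 itself was counted at 7 and 9 UMIs in the class II positive fibroblasts defined below.

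Ciita, on chromosome 16 (10480059 to 10528418, plus strand), was at the limit of detection. It had 25 UMIs in all LI fibroblasts and 67 in all SI fibroblasts, or 0.514 CPM (0.332 to 0.758) and 1.84 (1.43 to 2.34), in 0.310% and 1.07% of cells. No Ciita UMI was counted in PDGFRAhi FB, pericytes, SMC or ICC of the LI graft, which at 3 UMIs as the floor allows up to 1.13, 1.66, 1.64 and 2.62 CPM, nor in ICC of the SI graft, which allows up to 12.5. At this depth Ciita could not be ordered between those classes. Among the FB classes its level was highest in adventitial-type FB, at 1.30 CPM (0.421 to 3.02) in the LI and 2.79 (1.02 to 6.08) in the SI graft, from 5 and 6 UMIs, and Grem1/CD81 FB had 0.671 (0.322 to 1.23) and 2.77 (1.92 to 3.87), from 10 and 34 UMIs, with overlapping intervals.

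The low mean levels hid a small set of cells with much class II RNA. Of the 4 most counted genes, Cd74, H2-Aa, H2-Ab1 and H2-Eb1, none was detected in 5610 LI fibroblasts (72.6%) and all were detected in 460 (5.95%). These numbers were 3853 (68.8%) and 418 (7.47%) of the SI fibroblasts. Exactly 3 of the genes were detected in 200 LI and 168 SI fibroblasts. Thinned to 2000 UMIs per cell, 2.29% of LI and 2.71% of SI fibroblasts had 3 of the genes and 2.30% and 3.51% had all 4. Cells with all 4 genes held 81.0% of the class II UMIs of LI fibroblasts and 84.5% of those of SI fibroblasts, as the plot of co-detection shows. A single cell held up to 300 class II UMIs in the LI and 233 in the SI graft.

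**Figure D2:**
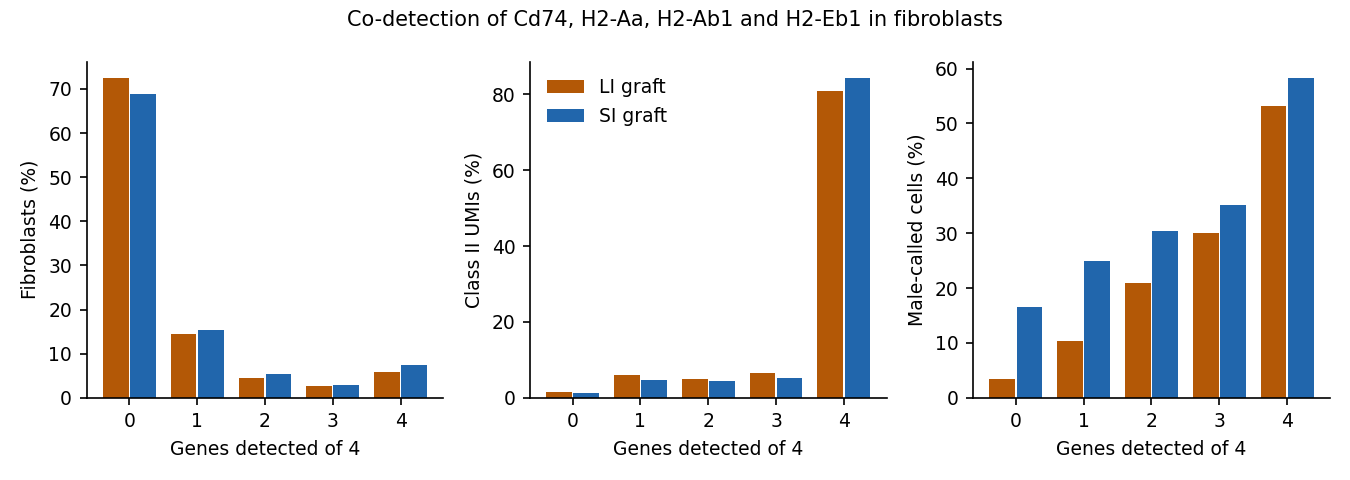
Fibroblasts by how many of Cd74, H2-Aa, H2-Ab1 and H2-Eb1 had a UMI (0 to 4), in the LI graft (orange) and the SI graft (blue). Bars give the percent of fibroblasts (left), the percent of all class II UMIs those cells held (middle) and the percent of the cells called male (right). Cells are not thinned, and those with all 4 genes were 5.95% and 7.47% of fibroblasts and held 81.0% and 84.5% of the UMIs.

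Fibroblasts with at least 3 of these 4 genes are called class II positive here and those with none class II negative, with cells of 1 or 2 genes in neither group. The 660 positive LI fibroblasts (8.54%) held 87.5% of the class II UMIs and the 586 positive SI fibroblasts (10.5%) held 89.8%. Positive cells were also deeper, with a median of 9744.5 UMIs in the LI and 8608 in the SI graft against 5104 and 5408 in negative cells. Thinned to 2000 UMIs, which left out 563 LI and 356 SI fibroblasts, the positive share was 4.59% (4.12 to 5.10) in the LI and 6.22% (5.58 to 6.91) in the SI graft. By class it was 7.77% (5.30 to 10.9) of adventitial-type FB, 7.24% (6.14 to 8.46) of Grem1/CD81 FB and 6.12% (5.06 to 7.33) of remaining FB in the LI graft, but 1.64% (1.18 to 2.22) of Fgfr2 FB and 0.620% (0.128 to 1.80) of PDGFRAhi FB. The same classes of the SI graft stood at 7.73%, 8.90%, 6.69%, 4.53% (3.64 to 5.56) and 0.773% (0.160 to 2.24). Within a sex call the LI classes stood differently. Among female-called LI cells the thinned shares were 0.344%, 0.618%, 0.566%, 0.519% and 0.671%, in the same order of classes and with overlapping intervals. Among male-called LI cells they were 30.2%, 28.6%, 30.4%, 21.3% and 0% (0 of 19 cells, with an interval up to 17.6%). Female-called SI cells had 1.04%, 1.94%, 2.01%, 1.19% and 0.444%, and male-called ones 13.6%, 24.6%, 21.2%, 9.68% and 1.10%. Unthinned, with the sex calls pooled and in the same order, the shares were 15.7%, 13.0%, 10.6%, 3.83% and 0.971% in the LI graft and 12.2%, 13.1%, 10.4%, 9.36% and 3.86% in the SI graft. Only 1 LI pericyte of 406 was positive before thinning, and 7 SI pericytes of 570.

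Since positive cells were defined by 4 of the same genes, their summed level is given as a description. It was 1916 CPM in the 5 positive PDGFRAhi FB of the LI graft (1417 to 2533), 2454 in Fgfr2 FB, 2573 in adventitial-type FB, 3409 in Grem1/CD81 FB and 3424 in remaining FB. Among SI cells it was 1587 CPM in 16 positive PDGFRAhi FB (1378 to 1818), 3645 in Fgfr2 FB, 3959 in remaining FB, 4560 in adventitial-type FB and 4911 in Grem1/CD81 FB.

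The other 3 members had no part in calling a cell positive. H2-DMa was at 76.2 CPM in positive and 1.98 in negative LI fibroblasts, a ratio of 38.4 (29.5 to 50.7), and at 204 and 3.65 in the SI graft, a ratio of 55.9 (44.6 to 70.9). H2-DMb1 was at 64.7 and 10.6 CPM in the LI graft, a ratio of 6.11 (5.29 to 7.07), and at 97.0 and 9.21 in the SI graft, a ratio of 10.5 (8.94 to 12.4). With 5 CPM added to both levels, the log2 ratio of H2-DMa was 2.38 in female-called and 3.77 in male-called LI cells and 3.65 and 4.58 in SI cells, and that of H2-DMb1 1.32 and 1.88 in LI and 2.33 and 2.92 in SI cells. Part of H2-DMb1, 336 UMIs in the LI and 207 in the SI graft, was counted in cells without a UMI of any of the 4 genes. Ciita had 15 UMIs in the 660 positive and 3 in the 5610 negative LI fibroblasts, a ratio of levels of 23.5 (6.65 to 127). SI positive and negative fibroblasts had 58 and 6, a ratio of 40.7 (17.6 to 115), and 53 of its 67 UMIs were in cells with all 4 genes.

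Other class II genes were counted in few cells: H2-DMb2 had 7 UMIs in positive and 2 in negative LI fibroblasts and 9 and 1 in the SI graft, and none of the other class II genes listed reached 10 CPM. A gene was tested between positive and negative cells where it reached 10 CPM on either side, and 5 CPM were added to both before the ratio. Among all 8728 genes tested in the LI graft 2.68% were at least 2-fold higher and 4.08% at least 2-fold lower in positive cells. Among 8659 in the SI graft the shares were 1.72% and 0.45%. The class II transactivation list (the RFX and NF-Y subunits, Creb1 and Nlrc5, the class I counterpart of Ciita) had 0 of 5 tested genes at least 2-fold higher in positive LI fibroblasts and 1 of 6 in the SI graft. That was Nlrc5, with a log2 ratio of 1.49 (1.22 to 1.73) beside 0.53 (0.27 to 0.79) in the LI graft, where it stayed under 10 CPM. Within the SI graft Nlrc5 had 0.84 (0.17 to 1.5) in female-called and 1.45 (1.02 to 1.84) in male-called cells.

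Interferon-gamma response genes were higher in class II positive cells when all fibroblasts were pooled, as the plot of positive against negative fibroblasts shows. Of 14 listed, 12 were tested, and 9 were at least 2-fold higher in LI positive cells and 12 in SI positive cells, with none lower. The list had a median log2 ratio of 1.29 and 1.83 beside -0.07 and -0.09 over all genes tested. Positive and negative cells differed in their sex calls, with 46.2% and 3.42% male-called in the LI and 51.7% and 16.5% in the SI graft. Within female-called LI fibroblasts 5 of 12 were at least 2-fold higher (median 0.88) and within male-called ones 1 of 12 (median 0.40). Within female-called SI fibroblasts 8 of 12 were (median 1.34) and within male-called ones 12 of 12 (median 1.72). Over all genes tested there the medians were -0.02 in female-called and -0.07 in male-called LI cells and 0.01 and -0.08 in SI cells. The share of all genes at least 2-fold higher within a sex call is not given. Cxcl9, a chemokine for T cells, was at 1461 CPM in positive and 80.1 in negative LI fibroblasts, a log2 ratio of 4.11 (4.05 to 4.17), and at 2754 and 219 in the SI graft, 3.62 (3.58 to 3.67). Within female-called and male-called cells its ratio was 3.44 and 2.71 in the LI and 2.04 and 3.29 in the SI graft. The immunoproteasome subunit gene Psmb8 had 1.58 in the LI and 1.67 in the SI graft, and the GTPase genes Gbp4 and Igtp 2.02 and 1.73 in the LI and 2.78 and 2.37 in the SI graft. Gbp4 had 0.03 (-0.33 to 0.40) within male-called and 1.98 (1.60 to 2.34) within female-called LI cells. Ifng, the gene of the cytokine, had 0 UMIs in positive fibroblasts of both libraries. Immune cells had been removed by the sort and by their UMIs, so this says nothing of the cytokine in the grafts.

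**Figure D3:**
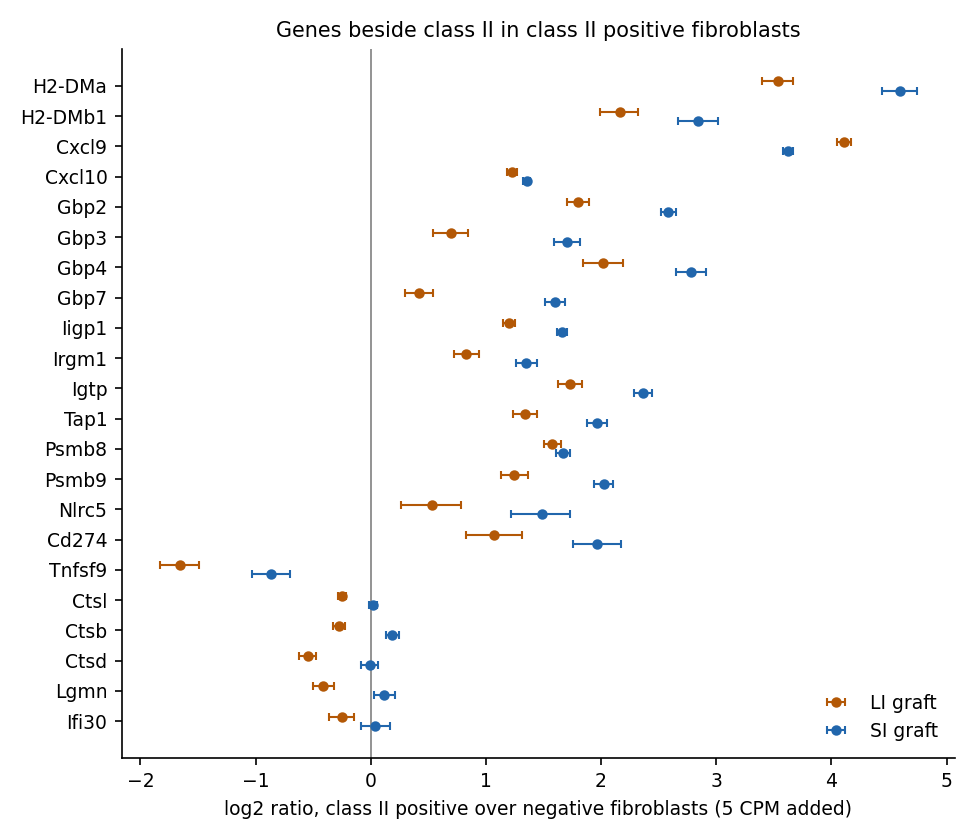
log2 ratio of genes in class II positive over class II negative fibroblasts, with 5 CPM added, in the LI graft (orange) and the SI graft (blue). Points are pooled ratios within 1 library and bars are exact 95% intervals of the split of UMIs. With the sex calls pooled, H2-DMa, H2-DMb1, Cxcl9 and Cd274 lie to the right in both libraries, Tnfsf9 to the left and the lysosomal genes near 0.

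The lysosomal proteases and Ifi30, the thiol reductase of antigen processing, had 0 of 5 tested 2-fold apart in either library with the sex calls pooled. Within female-called LI cells 1 of 6 was higher in positive cells, Ctss at 24.7 and 1.57 CPM, and within male-called LI cells 1 of 5 was lower, Lgmn at 153.7 and 391 CPM. Neither SI sex call had any. The female-called LI cells reached 10 CPM of Ctss only on the positive side, so its call is no support. Those positive cells also held more RNA of the macrophage markers named below, 127 CPM beside 26.8 in negative ones. The share of all genes called within a sex call is not given. Ctsl, the invariant chain protease of thymic epithelium, had a log2 ratio of -0.25 (-0.28 to -0.21) in the LI and 0.02 (-0.02 to 0.05) in the SI graft. Ctss, its counterpart in professional antigen-presenting cells, stayed under 10 CPM in the pooled cells, at 7.40 CPM in positive and 1.76 in negative LI cells and 8.80 and 1.20 in SI cells. Of the co-stimulatory and checkpoint ligands, Cd274, which encodes PD-L1, was higher in the pooled positive cells, with log2 ratios of 1.07 (0.83 to 1.31) and 1.97 (1.76 to 2.17), and Tnfsf9, which encodes 4-1BBL, was lower, at -1.66 (-1.83 to -1.49) and -0.86 (-1.03 to -0.70). Within a sex call neither difference held throughout. Cd274 had 0.38 (-0.18 to 0.99) in female-called and 0.06 (-0.52 to 0.65) in male-called LI cells and 0.76 (0.12 to 1.39) and 1.83 (1.47 to 2.17) in SI cells. Tnfsf9 had -0.81 (-1.10 to -0.53) and 0.43 (-0.12 to 0.98) in LI cells and -0.36 (-0.71 to -0.03) and -1.18 (-1.42 to -0.95) in SI cells. Cd80 had 2 UMIs and Cd86 3 in the positive LI fibroblasts, and neither had any in the positive SI fibroblasts. Cd40 had -0.37 and -0.38.

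The 10 non-member genes with the largest ratio in both libraries were Cxcl9, H2-Q6, H2-Q7, Zbp1, Ly6a, A2m, Gbp4, C3, Ecscr and Gbp2. The nonclassical class I genes H2-Q6 and H2-Q7 are near-identical, so their values of 2.91 and 2.81 in the LI and 2.50 and 2.30 in the SI graft are uncertain for each gene alone. Ly6a, which encodes Sca-1, was at 2309 CPM in positive and 533 in negative LI cells and at 2099 and 431 in SI cells. The complement gene C3 was at 1010 and 260 CPM in the LI and 1624 and 326 in the SI graft. A2m, a protease inhibitor gene, was at 47.5 and 0.976 CPM in the LI and 18.3 and 0.579 in the SI graft. Within female-called cells the ratios of these genes were above 0 but mostly smaller. There A2m had 1.70 in the LI and 0.68 in the SI graft, beside 3.14 and 2.07 pooled, C3 1.18 and 1.64 beside 1.94 and 2.30, and Ly6a 1.62 and 1.43 beside 2.10 and 2.27.

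Across the 8 classes the genes of similar profile were different ones. Ranked by the lower of the Pearson correlations with the summed class II level in the 2 libraries, over 8 classes each and 9901 genes, the first were Rgmb (0.94), Ptn (0.92), Ahnak2 (0.91), Slit3 (0.90) and Boc (0.90), followed by Ccng1, Fth1, Il13ra1, Hs3st1 and Phgdh (0.88 to 0.89). The growth factor gene Ptn ran from 24.3 to 787 CPM over the LI classes and was highest in Grem1/CD81 FB of both libraries. The members are part of that sum, so their own values are not comparable with these, 0.99 for Cd74, the gene with the most UMIs in it, and 0.44 for Ciita. Cxcl9 (0.02 and -0.24) and Cd274 (0.01 and -0.87) had values near or below 0, and in the SI graft both were highest in pericytes, the class that had least class II RNA. The points are classes of 1 library, which share its depth and its grafts, and no test was made.

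Class II RNA differed between the sex calls. Male-called LI fibroblasts had 2008 CPM of class II RNA (1973 to 2043) and female-called ones 115 (111 to 118), a log2 ratio of 4.12 (4.07 to 4.17). The SI levels were 1439 (1416 to 1462) and 186 (180 to 193), a log2 ratio of 2.94 (2.89 to 3.0). Male-called cells thus held 51.8% of the class II UMIs of LI and 60.2% of those of SI fibroblasts. The uncalled fibroblasts lay between, at 1548 CPM (1513 to 1583) in the LI and 1001 (977 to 1026) in the SI graft, and were 31.1% and 27.1% of the positive cells. Male-called cells were also deeper, with a median of 8733 UMIs against 5231.5 in the LI and 7799 against 5415 in the SI graft.

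All 6 members tested were at least 2-fold higher in male-called fibroblasts of both libraries. H2-DMa reached the 10 CPM needed only through the male-called cells, so its place in this count is no support. It was at 51.8 CPM in male-called and 3.56 in female-called LI fibroblasts and at 77.5 and 8.41 in SI ones. Among all genes tested, 4.6% of 8766 were at least 2-fold higher in the LI graft and 1.13% of 8620 in the SI graft, and 9.45% and 0.557% at least 2-fold lower. In the LI graft H2-Ab1 was at 482 and 22.2 CPM, a log2 ratio of 4.38 (4.27 to 4.49), and Cd74 at 819 and 42.8, a log2 ratio of 4.22 (4.14 to 4.31). H2-DMb1 had the smallest ratio of the 6, 1.90 (1.69 to 2.10) in the LI graft from 47.6 and 12.0 CPM and 1.73 (1.51 to 1.94) in the SI graft from 42.9 and 12.3. Per 100 Cd74 UMIs there were 28.1 H2-DMb1 UMIs in female-called (25.2 to 31.2) and 5.82 in male-called LI fibroblasts (5.17 to 6.53), and 16.2 and 6.90 in the SI graft. Ciita had 9 UMIs in male-called and 6 in female-called LI fibroblasts and 37 and 8 in SI fibroblasts. Interferon-gamma response genes were at least 2-fold higher in male-called cells for 9 of 12 tested in the LI and 8 of 12 in the SI graft, with none lower.

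The thinned share of positive cells was 27.7% of male-called (24.3 to 31.2) and 0.557% of female-called LI fibroblasts (0.384 to 0.782). Among SI fibroblasts it was 16.1% (14.1 to 18.3) and 1.56% (1.16 to 2.06). Unthinned it was 44.5% and 2.39% in the LI and 24.4% and 3.77% in the SI graft.

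Male-called cells were higher in nearly every class, as the plot of levels by sex call shows. In the LI graft adventitial-type FB had 2246 CPM in male-called and 93.3 in female-called cells, Grem1/CD81 FB 1977 and 129, and Fgfr2 FB 1080 and 106. SMC, with 13 male-called cells, had 2966 and 36.1, and ICC, with 29, had 1723 and 72.0. PDGFRAhi FB of the LI graft were the exception: their 21 male-called cells had 42.4 CPM (13.8 to 99.0) and their female-called cells 69.6 (59.6 to 80.9), with overlapping intervals. In the SI graft PDGFRAhi FB had 218 CPM (186 to 255) in 95 male-called and 86.2 (72.0 to 102) in female-called cells. Pericytes stayed low on both sides, at 57.8 (26.5 to 110) and 23.0 CPM (15.9 to 32.1) in the LI graft, with overlapping intervals, and at 95.6 and 31.7 in the SI graft. Male-called cells were 15.2% of LI Grem1/CD81 FB, 12.8% of adventitial-type FB, 10.6% of remaining FB, 4.08% of PDGFRAhi FB and 2.97% of Fgfr2 FB. Among female-called LI cells alone the FB classes other than PDGFRAhi ran from 93.3 to 129 CPM.

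**Figure D4:**
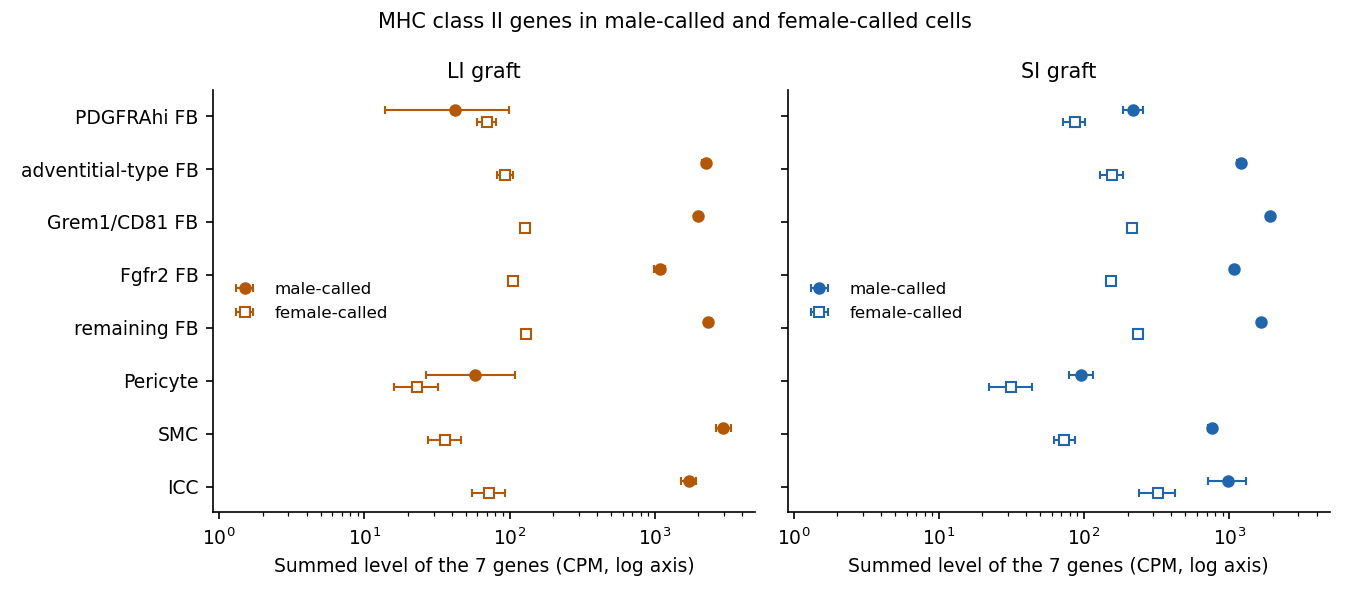
Summed level of the 7 class II genes in male-called (filled circles) and female-called cells (open squares) of each class (CPM, log axis), LI graft left and SI graft right. Bars are exact 95% Poisson intervals. Male-called cells lie to the right in every class but PDGFRAhi FB of the LI graft, at 42.4 against 69.6 CPM.

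Between the segments, SI fibroblasts had 694 CPM of class II RNA and LI fibroblasts 510, a log2 ratio of 0.44 (0.42 to 0.47). Of the 6 members tested, 1 was at least 2-fold higher in the SI graft and none lower, beside 1.56% of 8654 genes at least 2-fold higher and 1.85% at least 2-fold lower. That gene was H2-DMa, with a log2 ratio of 1.34 (1.21 to 1.47). Cd74 had 0.54, H2-Eb1 0.38, H2-Aa 0.37, H2-DMb1 0.25 and H2-Ab1 0.18. The interferon-gamma response list had 9 of 12 tested genes at least 2-fold higher in SI fibroblasts, with a median log2 ratio of 1.14 beside 0.01 over all genes. Within female-called cells 2 of 12 were (median 0.85) and within male-called cells 6 of 12 (median 0.99), beside medians of 0.04 and 0.02 over all genes tested there. The share of all genes called within a sex call is not given. Which kit, reading the 3′ or the 5′ end of transcripts, made which library was not given in the sources used here, and a ratio between the libraries could carry that difference. Endothelial markers summed to 19.1 CPM in SI and 11.7 in LI fibroblasts and epithelial ones to 15.2 and 8.22. The immune markers not used to remove cells had 11.2 and 7.87 and the macrophage markers 36.5 and 33.7. Macrophage sums were 37.2 and 18.4 in male-called and 36.4 and 36.8 in female-called cells. The part of such RNA in the ratio was not tested.

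By class, the summed log2 ratio was 1.52 (1.46 to 1.59) in Fgfr2 FB, 1.01 (0.76 to 1.26) in PDGFRAhi FB, 0.77 (0.62 to 0.92) in SMC, 0.66 (0.31 to 1.02) in pericytes, 0.43 (0.39 to 0.46) in Grem1/CD81 FB and 0.36 (0.27 to 0.45) in adventitial-type FB. It was 0.01 (-0.04 to 0.06) in remaining FB and 0.02 (-0.24 to 0.28) in ICC. The order was not the same within a sex call. In female-called cells the ratio was 0.30 (-0.03 to 0.64) in PDGFRAhi FB, 0.74 (0.41 to 1.05) in adventitial-type FB, 0.73 (0.62 to 0.84) in Grem1/CD81 FB and 0.86 (0.74 to 0.98) in remaining FB. In male-called cells it was 2.34 (1.10 to 3.91), -0.90 (-1.01 to -0.79), -0.06 (-0.10 to -0.01) and -0.49 (-0.56 to -0.43), the first resting on 5 LI UMIs. The share of male-called cells was higher in the SI graft in each of the 8 classes, at 2.97% in LI and 22.2% in SI Fgfr2 FB, 3.78% and 29.2% in SMC, 7.64% and 28.9% in pericytes and 12.8% and 36.7% in adventitial-type FB, and its part in the order of the ratios was not tested. Within male-called Fgfr2 FB the ratio was 0.01 (-0.12 to 0.14) and within female-called ones 0.52 (0.40 to 0.64). Female-called SMC had 36.1 CPM in the LI and 73.3 in the SI graft, and male-called SMC 2966 and 764. Female-called ICC had 72.0 and 321 and male-called ICC 1723 and 979. Pericytes were higher in the SI graft on both sides, at 23.0 and 31.7 in female-called and 57.8 and 95.6 in male-called cells.

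Split by sex call, the segments differed in opposite directions. Female-called SI fibroblasts were above female-called LI fibroblasts by a log2 ratio of 0.70 (0.63 to 0.76), and male-called ones were below by -0.48 (-0.51 to -0.45). H2-DMa was higher in the SI graft on both sides, at 1.04 (0.76 to 1.32) in female-called and 0.57 (0.39 to 0.76) in male-called cells. In female-called cells it was under 10 CPM in both libraries, at 8.41 CPM in the SI and 3.56 in the LI graft. For H2-DMb1 both intervals spanned 0. The mix of classes also differed, with Fgfr2 FB 79 of the 685 male-called LI and 446 of the 1244 male-called SI fibroblasts. Male-called Fgfr2 FB had 1080 CPM in the LI and 1086 in the SI graft, and male-called Grem1/CD81 FB 1977 and 1902. Male-called adventitial-type FB (2246 and 1204) and remaining FB (2329 and 1654) were lower in the SI graft, and PDGFRAhi FB (42.4 and 218) higher. The part of the class mix in the summed ratios was not tested.

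**Figure D5:**
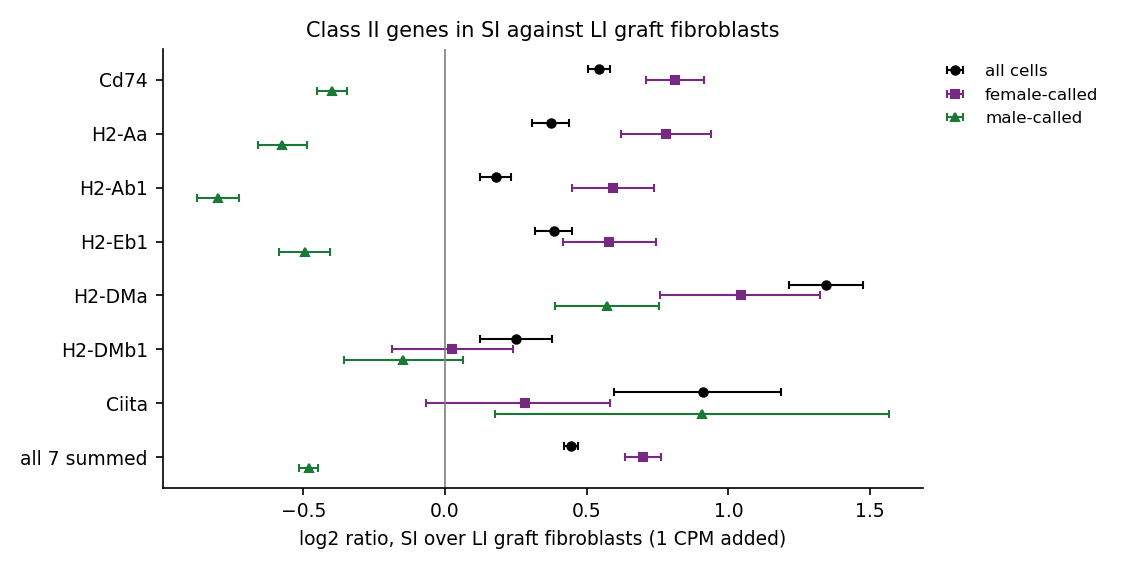
log2 ratio of each class II gene in SI over LI graft fibroblasts, with 1 CPM added, for all cells (black circles), female-called (purple squares) and male-called cells (green triangles). Bars are exact 95% intervals of the split of UMIs. The sum lies at 0.44 in all cells, 0.70 in female-called and -0.48 in male-called cells.

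The summed macrophage markers were higher in positive than in negative fibroblasts of both libraries, whereas with the sex calls pooled the summed dendritic cell markers were not. Fibroblasts that carried an immune UMI and had been left out, 714 in the LI and 543 in the SI graft, had 1113 and 1559 CPM of class II RNA, and 26.5% and 37.4% of them were positive. Those with exactly 1 such UMI had 964 and 1287 CPM, beside 510 and 694 in the fibroblasts kept. The 5 macrophage markers, Csf1r, C1qa, C1qb, Adgre1 and Lyz2, summed to 43.1 CPM in positive and 26.3 in negative LI fibroblasts and to 67.0 and 24.4 in the SI graft. In female-called cells the sums were 127 and 26.8 in the LI and 117 and 26.4 in the SI graft, and in male-called cells 17.6 and 12.0 and 56.1 and 17.2. Of the 3 markers tested, none was at least 2-fold higher in the pooled LI cells, 2 were in the pooled SI cells and 3 in the female-called cells of each library, while in male-called SI cells 1 of 2 was and in male-called LI cells none could be tested. Female-called positive fibroblasts thus carried the most macrophage RNA. Male-called and female-called fibroblasts had 18.4 and 36.8 CPM in the LI graft and 37.2 and 36.4 in the SI graft. The 6 immune markers not used to remove cells summed to 15.1 and 5.48 CPM in positive and negative LI fibroblasts and to 27.9 and 5.87 in the SI graft, and in female-called LI cells to 41.2 and 5.66. Of 6 dendritic cell markers, 3 were at 0 in positive LI and 4 in positive SI fibroblasts, and their sum was 4.59 CPM in positive and 4.98 in negative LI cells and 5.05 and 5.12 in SI cells. The 4 B cell markers summed to 0.148 and 0.378 CPM in the LI graft and 3.56 and 0.490 in the SI graft, and none of either list reached the level at which a ratio was tested. Positive fibroblasts without a UMI of 21 further immune markers nor of Igkc, Igha or Jchain numbered 443 in the LI (67.1%) and 334 in the SI graft (57.0%), and had 3380 and 4718 CPM of class II RNA. Markers of other cells excluded by the sort also differed in the pooled cells, the 6 endothelial ones summing to 17.9 and 10.6 CPM in positive and negative LI fibroblasts and 44.2 and 14.0 in the SI graft, and the 6 epithelial ones to 12.1 and 7.78 and to 26.6 and 10.0. Within female-called cells the endothelial sums were 20.2 and 10.6 in the LI and 13.8 and 10.4 in the SI graft, and within male-called cells 16.4 and 12.0 and 44.9 and 18.7. The epithelial sums were 35.9 and 7.75 in female-called and 6.38 and 6.38 in male-called LI cells, and 9.54 and 12.2 in female-called and 39.8 and 6.23 in male-called SI cells. What part RNA of immune, endothelial or epithelial cells had in the class II levels of positive cells, with or without a marker UMI, was not tested.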

How the data were processed

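The authors deposited 1 matrix of UMI counts per library, made with Cell Ranger 3.1.0 on mm10 per the submitters' processing notes, which also name Seurat 3. Values are raw counts from a 10x kit of the 3′ or 5′ kind. The matrices held 63348069 UMIs in 11568 LI barcodes and 54918006 in 9631 SI barcodes, and the lowest barcode had 500 and 501 UMIs.

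Computed from these counts: cells were given to a lineage where at least 3 of its markers were detected and its score, the mean of log values per 10000 UMIs scaled to the 95th percentile, led the next by 0.05 or more. Fibroblasts were given to a subset in the same way from at least 2 markers. 167 LI and 270 SI cells lay within 0.05 of the lineage limit. Counts were pooled per class and library, with exact Poisson, Clopper-Pearson (shares) and binomial (ratios) 95% intervals that cover counting error only. UMIs are not corrected for length, so genes were not compared with each other. With 1 library per group there was no test, and no p-value is given. Log2 ratios carry a pseudocount of 1 CPM, or 5 CPM between positive and negative cells, and a gene is called at least 2-fold apart where it reaches 10 CPM on 1 side. The share of all genes called is given for pooled cells and for male-called over female-called cells, and not for contrasts within a sex call. Shares were also taken after 1 random draw of 2000 UMIs per cell. Doublets were removed only as an alternative. Non-member genes are named by rank: the 10 with the largest smaller ratio of the libraries, and the 10 with the highest smaller correlation. The gene lists, the members and the rule for cells were chosen with earlier results of these data known, and the gate limits, promoter letters and added alternatives were chosen after seeing the data. The ratio and interval code was tested on simulated data. Tools were scanpy 1.11.5, igraph 0.11.9, scikit-learn 1.9.0, scipy 1.17.1, pandas 2.3.3 and numpy 2.4.6 under Python 3.11.15, with edgeR 4.0.16 in R 4.3.3 for TMM factors. Gene positions are from GENCODE on GRCm38. Promoter sequence is from RefSeq. Results for 1 gene, and for the list that holds it, are not reported here. Classes of 37 cells or fewer, the mesothelial and epithelial ones among them, were left out of the order of classes, a choice made after seeing the data.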

Additional observations from a re-analysis of the deposited data

Results flagged for a closer look

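The SI over LI ratio of class II genes in fibroblasts pointed opposite ways in female-called and male-called cells. The summed log2 ratio was 0.70 in female-called and -0.48 in male-called cells. By gene it was 0.81 and -0.40 for Cd74, 0.78 and -0.57 for H2-Aa, 0.59 and -0.80 for H2-Ab1, and 0.58 and -0.50 for H2-Eb1. The difference between the sex calls was not tested, since each segment was 1 library, and sex and embryo cannot be told apart. H2-DMa did not share this pattern, with 1.04 in female-called and 0.57 in male-called cells. The class mix differed too, with Fgfr2 FB 79 of the 685 male-called LI and 446 of the 1244 male-called SI fibroblasts, and its part was not tested.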

How the results depend on the processing

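No paired analysis was possible because each segment had 1 library, and for the same reason no library could be left out. Of 62 values under alternative settings, 28 moved by less than their counting interval, 33 moved by more and 1 changed sign. The SI over LI log2 ratio of the summed genes in fibroblasts, 0.44, was 0.70 in female-called and -0.48 in male-called cells. It was 0.42 with 1000 genes or more and up to 5% mitochondrial UMIs, 0.47 with immune-UMI cells kept, 0.39 with every cell holding an immune, B cell or dendritic cell marker UMI removed, 0.42 without Scrublet doublets, 0.39 with classes from clusters and 0.59 as a mean over cells. The LI positive share of 4.59% was 5.33% with immune-UMI cells kept, 8.54% unthinned, 2.43% at 1000 UMIs, 7.14% with at least 2 of the 4 genes and 0.557% in female-called cells. The SI share of 6.22% was 7.33%, 10.5%, 3.84%, 9.46% and 1.56% under the same settings and 5.54% with that wider removal. The male over female log2 ratio in the LI graft, 4.12, was 3.75 with immune-UMI cells kept, 4.30 with the wider removal and 4.32 without doublets. In the SI graft, 2.94 became 2.88 with 200 genes or more and up to 20% mitochondrial UMIs, 2.66 with immune-UMI cells kept, 3.21 without doublets and 2.87 as a mean over cells. Chosen after seeing the data were the positive shares in male-called cells (27.7% LI, 16.1% SI), sex calls from at least 2 UMIs (4.19 LI, 3.04 SI), SI cells of at least 5000 UMIs (3.0), and cells with no immune, macrophage or plasma cell UMI (0.32 for SI over LI, 4.53 LI and 3.07 SI for male over female). The cause of these moves was not tested.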

Other observations

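Outside the stromal classes, the 25 mesothelial-type cells of the LI graft had 6062 CPM of class II RNA, from 911 UMIs with 20.9% of them in 1 cell, and the 9 of the SI graft had 7638 CPM, from 494 UMIs with 53.8% in 1 cell. The 37 epithelial-type cells of the SI graft had 2646 CPM, with 33.0% of the UMIs in 1 cell. Cells that met no lineage gate had 1073 CPM in the LI and 915 in the SI graft.

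Igkc, an immunoglobulin light chain gene, was at 851 CPM in the positive SI fibroblasts, and 99.4% of its UMIs there came from 1 cell.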
